A study of Mus musculus with 6 samples.

Results

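The genes described here encode the MHC class I antigen presentation machinery of the mouse: the heavy chains H2-K1, H2-D1 and H2-T23, the light chain B2m, the peptide transporter subunits Tap1 and Tap2, the loading factors Tapbp and Tapbpl, the trimming peptidase Erap1 and the regulator Nlrc5. They were chosen by gene symbol, with earlier results of these data known, and all 10 were found among the 22609 genes of the count files. RNA sequencing covered 3 liver samples of mice lacking Igfbp7 (KO), whose product is secreted and binds insulin-like growth factors, and 3 wild type (WT) liver samples. All mice were adult and of the C57BL/6 strain. Per the labels, the deletion was made with a Cre-loxP strategy, and the sources used here do not say which cells carried Cre, nor sex, age or feeding state. Whether each sample is its own animal is not stated, so the p-values measure the spread between these samples, which may be technical.

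MHC class I molecules display short peptides from inside the cell to CD8 T cells and are read by receptors of natural killer cells. The proteasome cuts proteins into peptides, the TAP transporter carries them into the endoplasmic reticulum, and tapasin with its partners loads them onto a heavy chain paired with beta-2 microglobulin. Most nucleated cells express class I, hepatocytes at a lower level than immune and endothelial cells. Interferons raise the whole pathway, and NLRC5 drives class I promoters through a set of upstream boxes that it shares with CIITA, the regulator of class II.

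The promoter sequences are shown because the class I genes are known to share control elements. Of the 10 genes, 7 had a promoter window in the RefSeq table of build GRCm38.p6, each with 250 bases before and 50 after the annotated start. A module of TGACG followed after 18 to 22 bases by ATTGG, the core letters of the X2 and Y boxes, was found in 3 of these windows and in 0.268% of all 32851 windows of the table, on either strand. Its letters and spacing were chosen after the class I promoters had been read, so its presence in them is not a finding. The module lay at chr17:34000359-34000388 on the minus strand for H2-K1, at chr17:35262993-35263022 on the plus strand for H2-D1 and at chr2:122147609-122147638 on the plus strand for B2m. Capitals mark TGACG and ATTGG.
H2-K1 module: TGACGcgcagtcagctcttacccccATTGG
H2-D1 module: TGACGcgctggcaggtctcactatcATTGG
B2m module: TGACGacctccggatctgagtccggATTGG

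The modules of H2-K1 and H2-D1 had 23 of 30 bases in common, and those of H2-K1 and B2m 13 of 30. Farther upstream, H2-K1 and H2-D1 shared a stretch with a kappaB site, where NF-kB proteins bind, and an interferon response core, where IRF proteins bind. It lay at chr17:34000429-34000458 on the minus strand and at chr17:35262923-35262952 on the plus strand, with 29 of 30 bases alike. Capitals mark matches to GGG, any 4 bases and CCC, a pair of overlapping matches in each gene, and to GAA, any 2 bases and GAAA, read on the opposite strand.
H2-K1 upstream: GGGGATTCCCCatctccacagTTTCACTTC
H2-D1 upstream: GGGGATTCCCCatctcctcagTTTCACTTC

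Both H2-D1 stretches lie wholly within an exon annotated in GENCODE vM21, and those of H2-K1 and B2m do not overlap one. In the B2m promoter the interferon core has the wider form of GAAA, any 2 bases and GAAA. The kappaB letters were found in 2 of the 7 windows and in 11.9% of all windows. Either form of the interferon core was found in 5 of the 7 windows and in 10.4% of all windows. H2-K1 and H2-D1, which are much alike there, had the first form, found in 7.52% of all windows. H2-T23, B2m and Erap1 had the wider form, found in 3.44%. The genes were chosen as a pathway, so these numbers beside the shares of all windows are a description. TGACG alone was found in 20.8% of all windows, and the letters ATTGG in 37.4%. All searches covered both strands, and a match is a description of the letters only. The longer promoter stretches of H2-K1 (chr17:34000358-34000547, minus strand) and B2m (chr2:122147487-122147676, plus strand) show the order of these elements, with the same letters in capitals.
H2-K1 promoter: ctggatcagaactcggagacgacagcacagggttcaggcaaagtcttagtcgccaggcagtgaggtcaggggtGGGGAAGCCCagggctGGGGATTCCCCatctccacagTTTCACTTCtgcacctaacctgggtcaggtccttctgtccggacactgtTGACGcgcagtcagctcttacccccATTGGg
B2m promoter: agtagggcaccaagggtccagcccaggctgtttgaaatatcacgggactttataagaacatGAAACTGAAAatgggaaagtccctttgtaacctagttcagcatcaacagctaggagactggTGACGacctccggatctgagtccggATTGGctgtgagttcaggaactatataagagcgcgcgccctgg

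**Figure D1:**
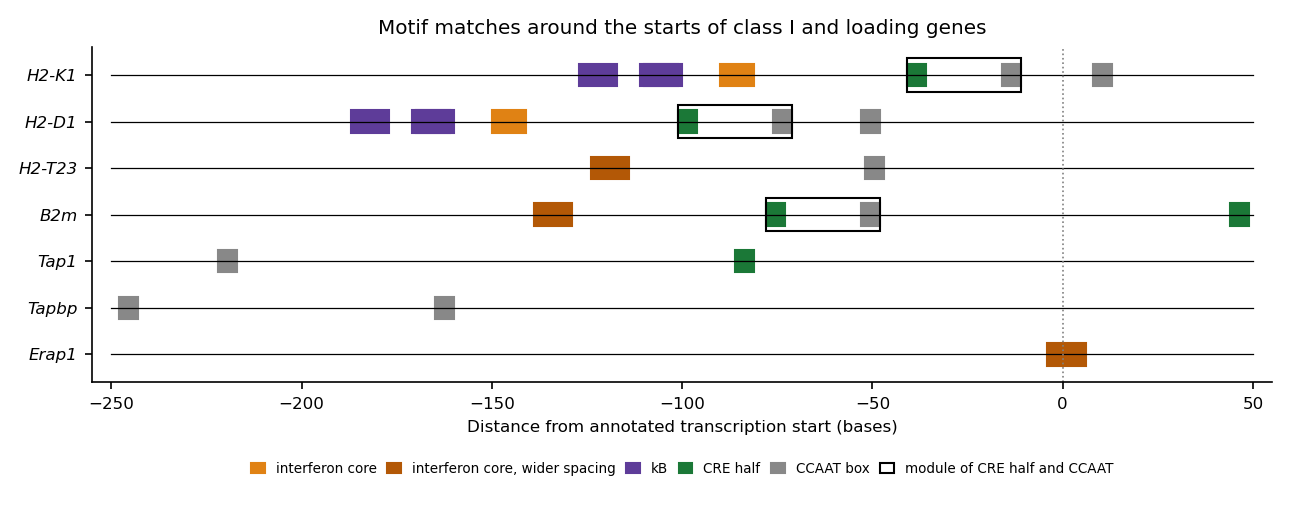
Positions of motif matches in the promoter windows of 7 class I and loading genes, in bases from the annotated transcription start (RefSeq, GRCm38.p6), with filled boxes for single motifs (green for TGACG, grey for ATTGG on either strand) and open boxes for the module of both. The open boxes are in H2-K1, H2-D1 and B2m. The kappaB boxes, for the fixed spacing searched, are in H2-K1 and H2-D1 alone among the 7.

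The libraries held 18912701 to 22419411 gene counts in KO samples and 16712568 to 21478524 in WT samples. Igfbp7 itself had 5, 2 and 9 counts in KO samples, against 1438, 1705 and 1055 in WT samples, as the labels state. Reads outside annotated genes made up 11.3%, 12.3% and 12.5% of uniquely placed reads in KO samples, against 10.7%, 9.65% and 11.3% in WT samples. Every KO share lay above every WT share, by a narrow margin between KO replicate 1 and WT replicate 3, and the part of this in the class I values was not tested. Levels are given as CPM, read counts scaled to a common library size with TMM-adjusted sizes. Alb, the albumin gene that defines hepatocytes, averaged 77357 CPM in KO and 67200 CPM in WT samples. The edgeR quasi-likelihood test, adjusted by Benjamini-Hochberg over 12522 tested genes at a threshold of 0.05, called 27 genes, 0.216% of them.

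All 10 class I and loading genes had negative log2 fold changes in the KO samples, at a median of -0.29, against a median of 0.001 over all tested genes, of which 49.7% were negative. The classical heavy chains, the light chain and Tap1 stood lowest relative to WT, and Erap1 was nearly level between genotypes. Over all tested genes edgeR called 0 of the 10, where 0.0878% of all genes were called lower. At an unadjusted p under 0.05, 4 of the 10 were lower, H2-K1, H2-D1, B2m and Tap1, against 7.35% of all tested genes. DESeq2 called these same 4 genes lower, against 1.66% of all tested genes. In 4 of the 10, H2-K1, H2-D1, B2m and Tap2, every KO value lay below every WT value, and 10.1% of all tested genes did the same. All 10 passed the filter on low counts, and each had at least 323 counts in every library. They were chosen with earlier results of these data known, so their numbers beside the shares of all genes are a description.

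**Figure D2:**
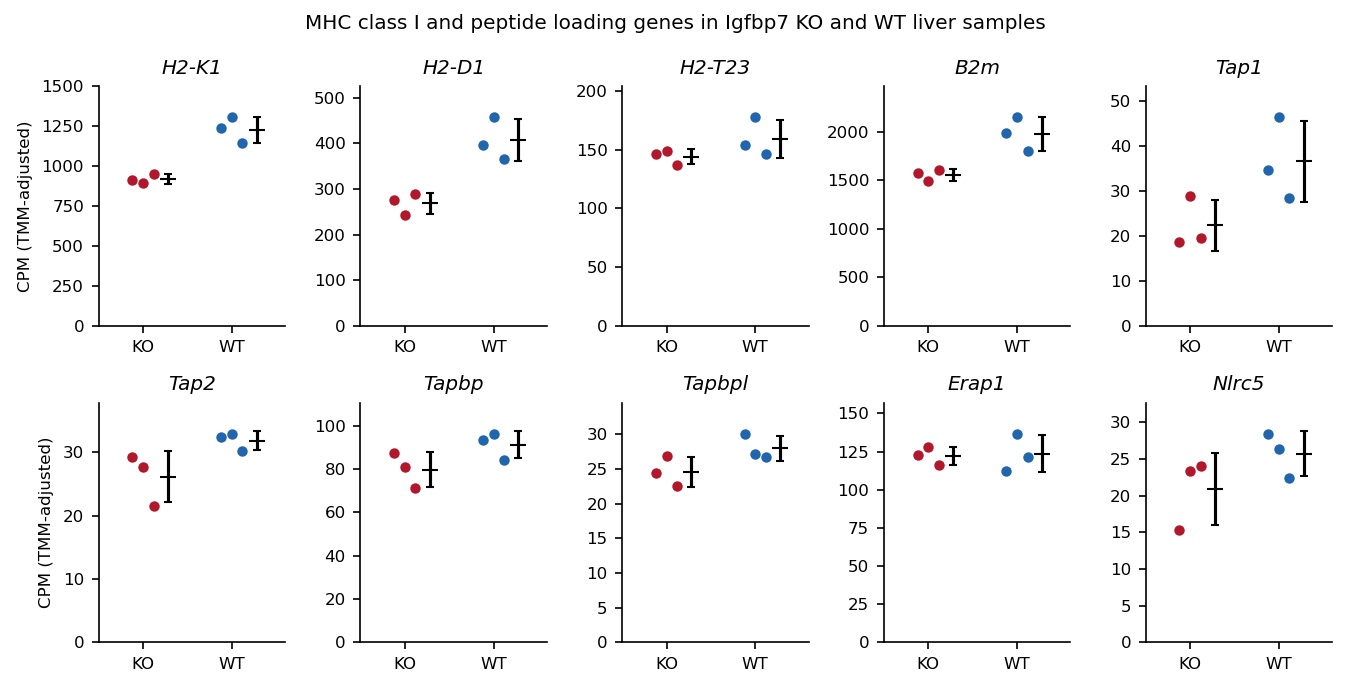
CPM of each class I and loading gene in 3 KO (red) and 3 WT (blue) samples, with bars for the mean and SD of each genotype and each axis starting at 0. The genotypes separate for H2-K1, H2-D1, B2m and Tap2 and overlap for the other 6 genes.

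H2-K1, the K heavy chain, presents peptides to CD8 T cells. It had 910, 894 and 953 CPM in KO samples, against 1237, 1306 and 1143 CPM in WT samples. The highest KO library lay well below the lowest WT library. The KO level was 74.8% of WT, a log2 fold change of -0.42 ± 0.11 (SE), with an edgeR adjusted p of 0.136 and a DESeq2 adjusted p of 0.00324.

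H2-D1, the D heavy chain, does the same for another set of peptides. It had 275, 242 and 288 CPM in KO samples, against 398, 457 and 366 CPM in WT samples. The groups did not overlap, and KO replicate 2 was lowest while WT replicate 2 was highest. Its mean was 269 ± 24 CPM in KO and 407 ± 46 CPM in WT samples (SD, n = 3 each). The log2 fold change was -0.60 ± 0.12 (SE), or 66.0% of WT, and its p was the 117th lowest of all tested genes. The edgeR adjusted p was 0.0801, which did not pass, and the DESeq2 adjusted p was 0.000491.

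H2-T23 encodes Qa-1, a nonclassical heavy chain that shows signal peptides of other class I molecules to the CD94-NKG2 receptors of natural killer cells. It had 147, 149 and 137 CPM in KO samples, against 154, 178 and 146 CPM in WT samples. The groups overlapped, with WT replicate 3 just below KO replicates 1 and 2. The log2 fold change was -0.14 ± 0.10 (SE, edgeR adjusted p = 0.537), and it was -0.06 without WT replicate 2.

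B2m, the light chain that every one of these heavy chains needs at the cell surface, was the most abundant of the 10. It had 1578, 1487 and 1602 CPM in KO samples, against 1988, 2148 and 1800 CPM in WT samples. The groups did not overlap. B2m had a log2 fold change of -0.35 ± 0.12 (SE), or 78.6% of WT, with an edgeR adjusted p of 0.226 and a DESeq2 adjusted p of 0.0458.

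Ratios of counts within a library do not depend on the scaling between libraries. The ratio of H2-D1 to H2-K1 was 0.303, 0.271 and 0.302 in KO samples, against 0.321, 0.350 and 0.320 in WT samples. Every KO ratio was below every WT ratio, so H2-D1 was lower relative to H2-K1, by 0.18 on the log2 scale. The 2-sided exact permutation p was 0.1, the smallest that 3 against 3 samples allow, and 0.125 adjusted over 5 ratios. None of the 5 ratios could therefore pass 0.05.

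The sum of the 3 heavy chains relative to B2m was 0.845, 0.864 and 0.860 in KO samples, against 0.899, 0.904 and 0.920 in WT samples. These 3 heavy chains together were thus lower against the light chain in every KO library, by 0.08 on the log2 scale (exact permutation p = 0.1). The sum leaves out H2-Q10, another heavy chain gene, which at 1731 CPM in KO and 1824 CPM in WT samples exceeded H2-K1. The result therefore covers these 3 genes only. Of the counts over the 3 heavy chains, H2-K1 took 68.3% to 69.6% in KO and 67.3% to 69.2% in WT samples. H2-D1 took 18.9% to 20.9% in KO and 22.1% to 23.6% in WT samples. H2-T23 took 9.94% to 11.6% in KO and 8.61% to 9.15% in WT samples.

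The remaining 3 ratios were chosen after the values had been seen. H2-T23 relative to H2-K1 was 0.161, 0.166 and 0.144 in KO samples, against 0.124, 0.136 and 0.128 in WT samples, higher in all 3 KO libraries (log2 difference 0.28, exact permutation p = 0.1). H2-Q10, a class I heavy chain gene of the liver whose product is secreted into serum, had 1731 ± 177 CPM in KO and 1824 ± 200 CPM in WT samples (SD, n = 3 each). H2-K1 relative to H2-Q10 was 0.472, 0.531 and 0.602 in KO samples, against 0.617, 0.702 and 0.710 in WT samples, a log2 difference of -0.34 (exact permutation p = 0.1). KO replicate 3 and WT replicate 1 were close, and the order of the groups still held.

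**Figure D3:**
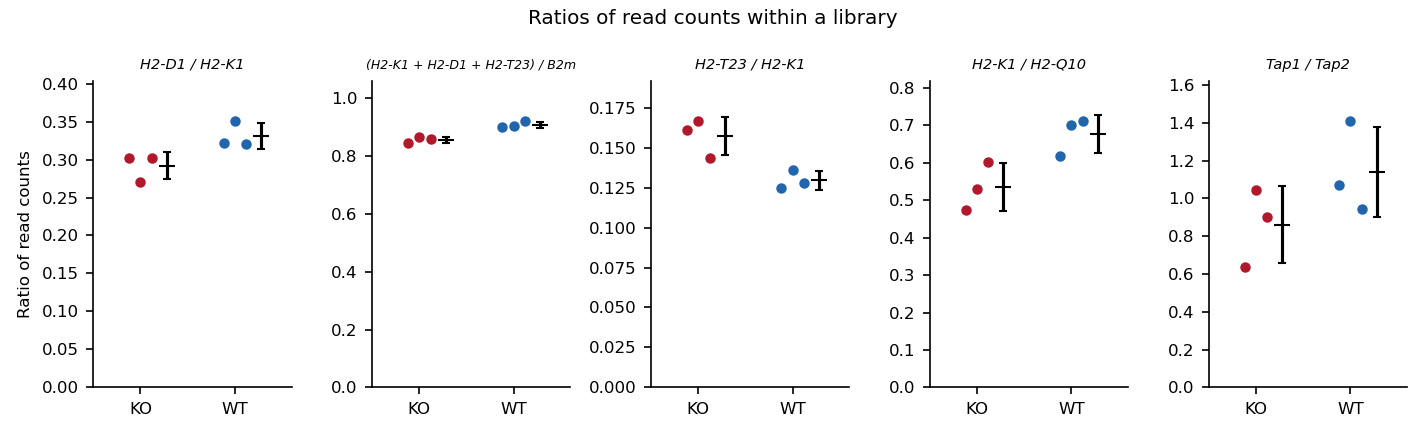
Ratios of read counts within each KO (red) and WT (blue) library, with the mean and SD of each genotype as bars and each axis starting at 0. The groups do not overlap in the first 4 panels, with H2-T23 to H2-K1 higher in KO samples and the other 3 lower, and they overlap for Tap1 to Tap2.

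Tap1 and Tap2 form the transporter that brings peptides into the endoplasmic reticulum. Tap1 had 18.7, 28.8 and 19.5 CPM in KO samples, against 34.7, 46.3 and 28.5 CPM in WT samples. KO replicate 2 lay just above WT replicate 3, and the other KO libraries were clearly lower. Its log2 fold change was -0.71 ± 0.21 (SE), or 61.0% of WT, the lowest of the 10, with an edgeR adjusted p of 0.175 and a DESeq2 adjusted p of 0.0371. Tap1 shares its short promoter region with the immunoproteasome gene Psmb9, which runs the other way.

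Tap2 had 29.3, 27.6 and 21.6 CPM in KO samples, against 32.5, 32.9 and 30.1 CPM in WT samples. The groups did not overlap, by a narrow margin for KO replicate 1. The log2 fold change was -0.28 ± 0.13 (SE, edgeR adjusted p = 0.332), and it was -0.16 without KO replicate 3. The ratio of Tap1 to Tap2 was 0.639, 1.04 and 0.902 in KO samples, against 1.07, 1.41 and 0.946 in WT samples, and these overlapped (exact permutation p = 0.2).

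Tapbp, or tapasin, bridges the transporter and the empty class I molecule. It had 87.5, 80.8 and 71.2 CPM in KO samples, against 93.5, 96.3 and 84.3 CPM in WT samples. The highest KO library exceeded the lowest WT library. The log2 fold change was -0.20 ± 0.10 (SE, edgeR adjusted p = 0.402), and it was -0.12 without KO replicate 3.

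Tapbpl encodes TAPBPR, a tapasin relative that edits peptides outside the loading complex. It had 24.4, 26.9 and 22.5 CPM in KO samples, against 30.0, 27.2 and 26.7 CPM in WT samples. KO replicate 2 lay just above WT replicate 3, and the log2 fold change was -0.19 ± 0.11 (SE, edgeR adjusted p = 0.440).

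Erap1, the aminopeptidase that trims peptides in the endoplasmic reticulum, had 123, 128 and 116 CPM in KO samples, against 113, 137 and 122 CPM in WT samples. The KO values lay inside the WT range. Its log2 fold change of -0.02 ± 0.10 (SE, edgeR adjusted p = 0.954) turned to 0.06 without WT replicate 2 and to 0.02 without KO replicate 3.

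Nlrc5, the transactivator of class I genes, had 15.3, 23.4 and 24.01 CPM in KO samples, against 28.4, 26.4 and 22.4 CPM in WT samples. KO replicate 1 stood apart from the other KO libraries, which reached the WT range. The log2 fold change was -0.30 ± 0.18 (SE, edgeR adjusted p = 0.463), and it was -0.12 without KO replicate 1.

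Levels were compared between genes per kilobase of the longest protein-coding transcript in GENCODE vM21. B2m led with 1809 ± 70 CPM per kilobase in KO and 2301 ± 202 in WT samples (SD, n = 3 each), followed by H2-K1 with 568 ± 19 and 759 ± 50. H2-D1 came next at 128 ± 11 in KO and 194 ± 22 in WT samples, then H2-T23 at 97.9 ± 4.3 and 108 ± 11. The heavy chains and the light chain were thus far above the loading genes, of which Tapbp, at 27.5 ± 2.8 in KO and 31.5 ± 2.2 in WT samples, was highest. Erap1 stood at 21.6 ± 1.1 in KO and 21.9 ± 2.2 in WT samples. Tapbpl was at 10.4 ± 0.9 in KO and 11.9 ± 0.8 in WT samples, and Tap1 at 7.56 ± 1.91 and 12.4 ± 3.1. Tap2 was at 7.60 ± 1.17 in KO and 9.25 ± 0.44 in WT samples. Tap1 did not differ from Tap2 in KO samples, nor from Tapbpl in WT samples, beyond the spread. Nlrc5 was lowest at 2.76 ± 0.64 in KO and 3.4 ± 0.41 in WT samples.

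Class I genes resemble each other, and reads placed at several positions were not counted. In GENCODE vM21, 8.79% of the 50-base stretches of the H2-K1 transcript, 14.3% of those of H2-D1 and 29.8% of those of H2-T23 also occurred in another gene, such as H2-Q1. The share was 0% for B2m and Nlrc5, 3.69% for Tapbpl, 6.47% for Tap1, 12.6% for Tap2, 14.0% for Erap1, which overlaps Cast, and 21.0% for Tapbp, which overlaps Gm19412. Counts of the heavy chains can therefore be low or hold reads of a relative. Tapbpl overlaps E130112N10Rik, H2-T23 overlaps A930015D03Rik and B2m overlaps Patl2 in assembly GRCm38.p6, Nlrc5 overlaps 3 genes, and no strand setting is given for the counting. Of the 10 genes, 6 lie on chromosome 17.

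Other class I heavy chain genes, listed with class I-like genes such as Cd1d1, Fcgrt, Azgp1, Hfe and Mr1, had values of both signs. Of 20 found in the files 15 were tested, 11 of them negative and 4 positive at a median log2 fold change of -0.16. EdgeR called 0 in either direction. The 4 positive were H2-T22 (0.50), under 1 CPM on average in both genotypes, and the class I-like Cd1d1 (0.20), Fcgrt (0.15) and Azgp1 (0.09). Hfe (-0.16) and Mr1 (-0.08) were negative. An unadjusted p under 0.05 gave 4 lower and 0 higher, and DESeq2 gave 0. H2-Gs10, an older symbol of H2-Q4, had 22.3 ± 2.0 CPM in KO and 30.5 ± 5.4 CPM in WT samples (SD, n = 3 each), and H2-T24 5.49 ± 0.57 and 7.18 ± 0.39 CPM. H2-Q6, with 5.01 ± 2.30 CPM in KO and 8.69 ± 2.13 CPM in WT samples, overlapped between genotypes. H2-Q2 was under 1 CPM in both genotypes on average. H2-Q7 and H2-T9 had 0 counts in all 6 libraries, where reads shared with a relative would not be counted.

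The proteasome makes the peptides that TAP carries. All 5 genes of the immunoproteasome and its PA28 cap were negative at a median of -0.20, with 0 edgeR calls. An unadjusted p under 0.05 and DESeq2 each gave 2 lower. Psmb8 had 26.8 ± 2.4 CPM in KO and 42.8 ± 7.2 CPM in WT samples (SD, n = 3 each). Its log2 fold change was -0.68 ± 0.14 (SE, edgeR adjusted p = 0.0823). Psmb9, the neighbour of Tap1, stood at -0.79 ± 0.24 (SE, edgeR adjusted p = 0.182). Psme1 was at -0.20 ± 0.11 (SE) and Psmb10 at -0.19 ± 0.12 (SE). The 3 constitutive subunits that the immunoproteasome replaces had a median of -0.08, and 0 passed by edgeR, DESeq2 or an unadjusted p under 0.05.

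The chaperones that fold class I and other glycoproteins were also on the low side. All 5 were negative at a median of -0.30, with 0 edgeR calls. An unadjusted p under 0.05 gave 3 lower, and DESeq2 gave 1. Calr, the calreticulin of the loading complex, had 654 ± 114 CPM in KO and 876 ± 72 CPM in WT samples (SD, n = 3 each), and Pdia3, its partner ERp57, 441 ± 30 and 544 ± 38 CPM. Hspa5, the general chaperone BiP, was the 1 called by DESeq2, at -0.35 ± 0.10 (SE, edgeR adjusted p = 0.160). Uggt1, which checks folding, was at -0.15 ± 0.10 (SE).

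Among the factors of the class I and class II promoter complex, 4 of 9 were negative at a median of 0.02, with 0 calls by edgeR and DESeq2. An unadjusted p under 0.05 gave 2 lower, Ciita, the class II transactivator, at 1.23 ± 0.34 CPM in KO and 2.21 ± 0.72 CPM in WT samples (SD, n = 3 each), and Rfxank, at 9.54 ± 0.66 and 12.9 ± 3.0 CPM. The partners of Rfxank, Rfx5 and Rfxap were at 0.30 ± 0.19 and 0.20 ± 0.14 (log2 fold change, SE).

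Of 16 tested interferon and NF-kB regulators, 10 were negative at a median of -0.03, and edgeR called 1 lower and 0 higher. Irf7, a factor that amplifies type I interferon signalling, fell to 35.4 ± 5.6 CPM in KO samples, against 62.4 ± 1.9 CPM in WT samples (SD, n = 3 each, edgeR adjusted p = 0.0489), and it was not called when any 1 library was left out. Irf8 was at -0.39 ± 0.16 (SE) and Irf9 at -0.21 ± 0.12 (SE). An unadjusted p under 0.05 gave 3 lower and 0 higher, and DESeq2 gave 2 lower. Ifng itself averaged 0.0346 CPM in KO and 0.0177 CPM in WT samples and was too low to test.

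**Figure D4:**
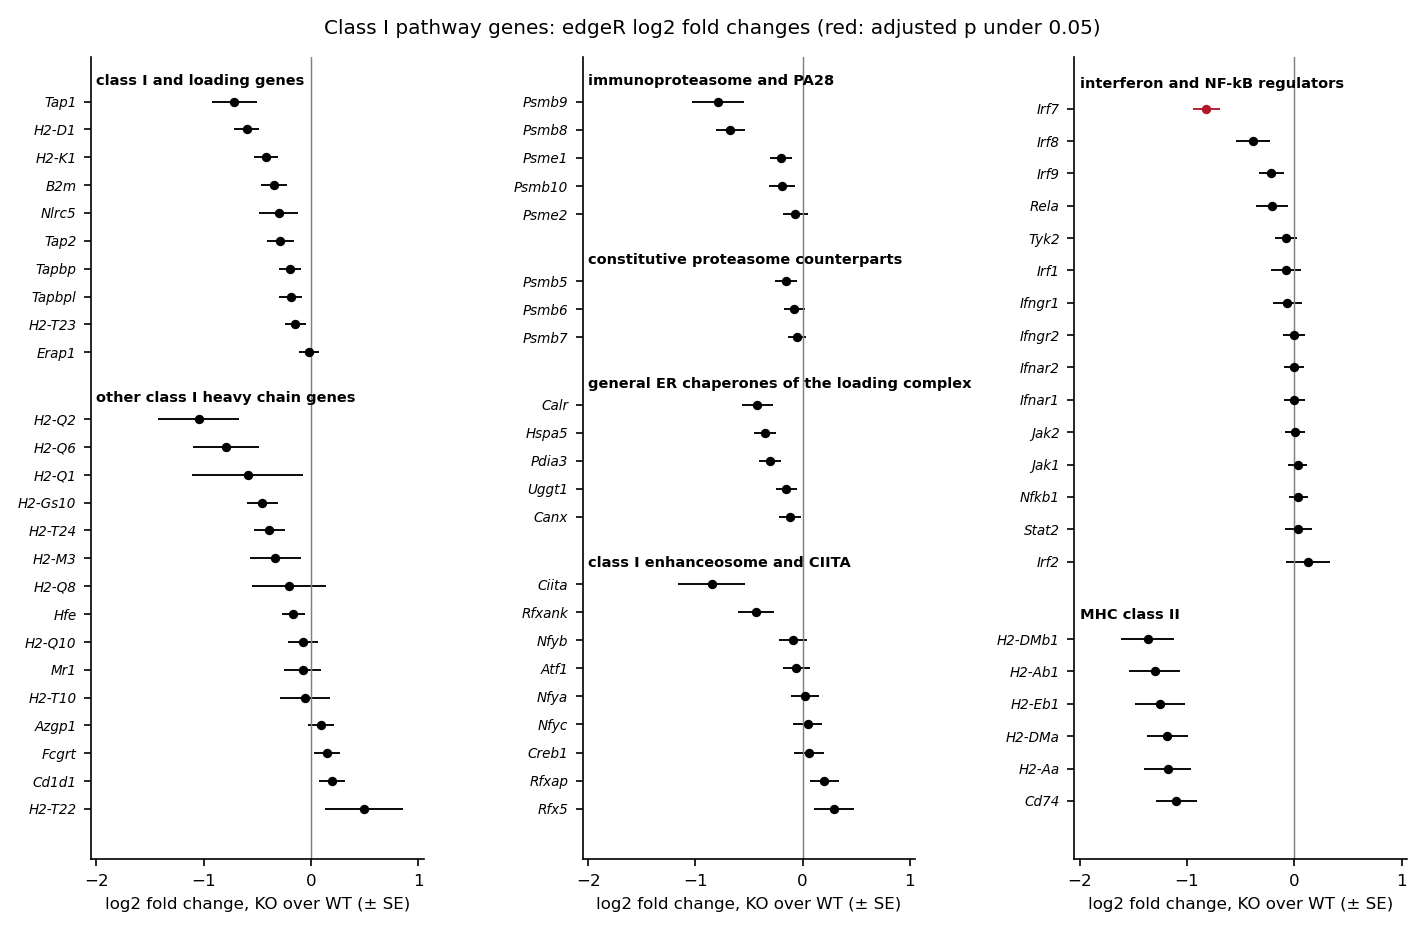
Log2 fold changes (KO over WT, edgeR) with SE for the class I and loading genes, related pathway lists and MHC class II, where red marks an adjusted p under 0.05. The class I and loading genes run from -0.71 for Tap1 to -0.02 for Erap1, the class II genes lie between -1.36 and -1.10, and Irf7 is the 1 gene in red.

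Markers of immune cells, which carry much class I, had lower mean levels in the same KO samples. In bulk tissue, fewer cells of a type and less RNA per cell cannot be told apart. All 13 Kupffer cell and macrophage markers were negative at a median of -0.69, and an unadjusted p under 0.05 gave 13 lower. By edgeR 0 passed, and DESeq2 gave 10. Their summed level was 50.4% to 78.2% of the WT mean in KO samples and 93.5% to 105% in WT samples. Cd5l, a secreted macrophage protein, had 100.3 ± 26.9 CPM in KO and 181 ± 6 CPM in WT samples (SD, n = 3 each), Clec4f, a Kupffer cell lectin, 121 ± 32 and 177 ± 10 CPM, and Csf1r, the growth factor receptor of macrophages, 57.3 ± 13.5 and 87.0 ± 5.8 CPM.

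Of 16 leukocyte and lymphocyte markers 11 were tested. All 11 were negative at a median of -0.67, with 0 edgeR calls. An unadjusted p under 0.05 gave 7 lower, and DESeq2 gave 3. The other 5 had too few counts to pass the filter. The summed level of all 16, mostly Laptm5 and Ptprc, was 50.4% to 69.4% of the WT mean in KO samples and 90.8% to 109% in WT samples. None was at 0 in all libraries, but the T cell markers Cd3e, Cd3d, Cd3g and Cd2 averaged under 1 CPM in each genotype. Laptm5, a lysosomal protein of blood cells, had 17.6 ± 2.8 CPM in KO and 27.9 ± 3.1 CPM in WT samples (SD, n = 3 each).

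The 6 class II genes, markers of dendritic cells, B cells and macrophages, were negative at a median of -1.22, and their sum was 32.3% to 52.1% of the WT mean in KO samples and 78.2% to 119% in WT samples. By edgeR 0 of them passed, while an unadjusted p under 0.05 and DESeq2 each gave 6 lower. The summed level of the 10 class I and loading genes was 75.1% to 79.2% of the WT mean in KO samples and 91.7% to 108% in WT samples. This sum was mostly B2m and H2-K1. The transporter, loading and trimming genes added little to it and ran from 61.0% of WT for Tap1 to 98.8% for Erap1. The part of these cell markers in the class I values was not tested.

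Receptors that bind class I, listed here with relatives that need not bind it, had few counts. Of 10 such genes of T, natural killer and myeloid cells, 3 passed the filter, Klrk1, Lilrb4 and Lilrb3. Their median was -0.32, and edgeR and DESeq2 called 0. At an unadjusted p under 0.05, 1 was lower, Lilrb3. Klra1 and Klra3, natural killer receptors, averaged 0 CPM in KO and 0.0177 and 0.0562 CPM in WT samples, under what these depths can compare.

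Markers of other liver cells gave mixed values. The sum of 10 endothelial markers was 89.9% to 109% of the WT mean in KO samples and 97.9% to 102% in WT samples, with a median log2 fold change of -0.09, 0 called by edgeR or DESeq2, and 1 lower at an unadjusted p under 0.05. Stellate cell markers summed to 74.3% to 112% in KO and 90.7% to 114% in WT samples, and 0 of 9 passed by any of these criteria. Cholangiocyte markers summed to 51.6% to 64.0% in KO and 82.1% to 112% in WT samples, mostly through Spp1, which had 48.1 ± 5.3 CPM in KO and 85.1 ± 13.1 CPM in WT samples (SD, n = 3 each, edgeR adjusted p = 0.0596). All 5 tested cholangiocyte markers were negative, at a median log2 fold change of -0.44. EdgeR called 0 of these 5, and DESeq2 and an unadjusted p under 0.05 each gave 1 lower, Spp1. Hepatocyte markers summed to 106% to 125% in KO and 93.6% to 113% in WT samples, mostly through Alb. Of the 10, 6 were positive and 4 negative, at a median log2 fold change of 0.13. EdgeR called 0 of the 10, and DESeq2 called 1 higher, Cyp2e1, and 1 lower, G6pc.

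**Figure D5:**
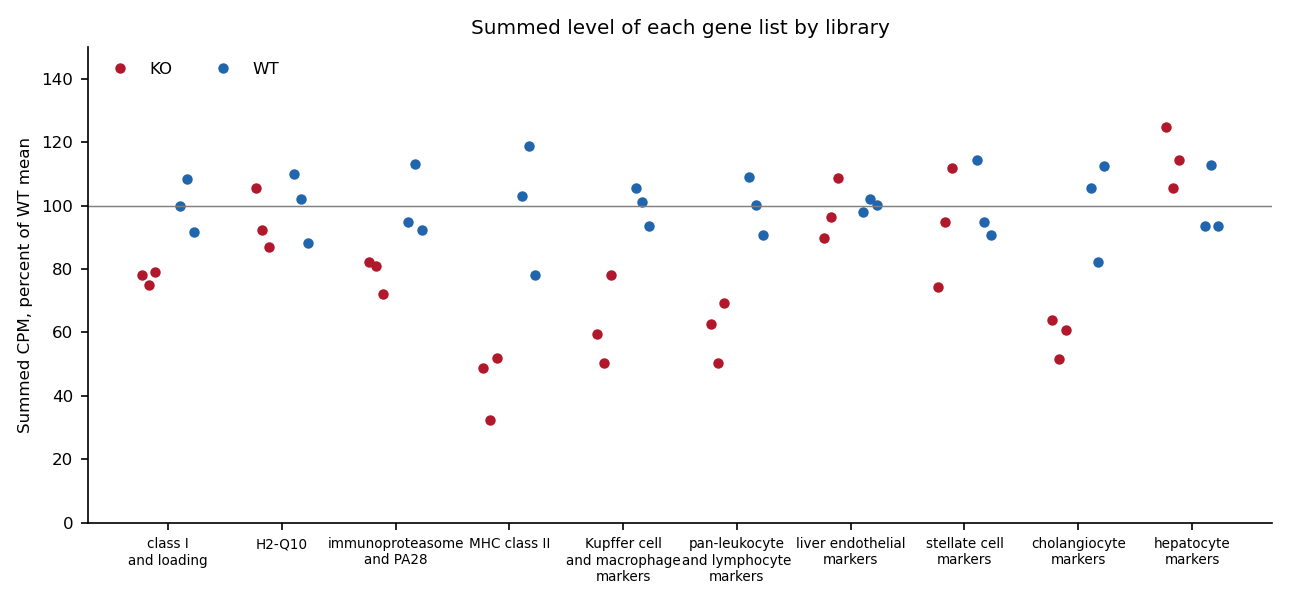
Summed CPM of each gene list in every KO (red) and WT (blue) library, as a percent of the WT mean, on an axis from 0. The class I and loading genes, whose sum is mostly B2m and H2-K1, lie at 75.1% to 79.2% in KO samples, and class II at 32.3% to 52.1%. H2-Q10 lies at 86.8% to 106% in KO samples, inside or near its WT range of 88.2% to 110%.

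The genes whose pattern over the 6 libraries was most like the mean of the 10 were Gpn2, Tnfrsf1a, Vat1, Sec61b and Flywch1. Likeness was the root mean square difference of centred log2 CPM over the 6 libraries among 7776 other genes of at least 10 CPM, and it was 0.02 for Gpn2 and 0.05 for the other 4. The same measure from the mean was 0.07 for B2m, 0.08 for H2-K1, 0.18 for H2-D1 and 0.29 for Tap1. By it B2m and H2-K1 lay closest to the mean and Tap1 farthest. Each of the 10 is part of that mean, and the measure also depends on the size of a gene's change, so the order is a description. Tnfrsf1a, a receptor for tumour necrosis factor, had 81.3, 87.4 and 78.7 CPM in KO samples, against 107, 105 and 91.3 CPM in WT samples. These genes were selected for their pattern, so their difference between genotypes is a description.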

How the data were processed

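The authors deposited, for every library, a table of raw counts, 1 whole number for each gene symbol. Per the submitters' processing notes, the tools were CASAVA 1.8.2, TopHat2 2.0.8b and HTSeq; mm9 and hg19 are listed as builds without a stated role, and no annotation or strand setting is given. The 5 rows that name no gene were left out: reads outside genes were 11.3% to 12.5% of uniquely placed reads in KO and 9.65% to 11.3% in WT samples, and each gene count had 1.49 to 2.65 alignments that were not unique. Counts were tested with edgeR 4.0.16 (R 4.3.3): filterByExpr with a minimum count of 10, TMM, a quasi-likelihood model with genotype as its only term, 2-sided tests and Benjamini-Hochberg adjustment over all genes tested. SEs come from the F statistic. DESeq2 1.42.0 and limma 3.58.1 (voom) were alternatives, and DESeq2 gave no adjusted p for 490 genes. Log2 CPM profiles used a prior count of 2. Gene members and lists were chosen with earlier results of these data known. Named genes were the 10 members, up to 4 per pathway list by lowest p, up to 3 per marker list by mean CPM, and the 5 nearest in pattern. Some were chosen after their values were seen: H2-Q10, H2-Q7, H2-T9, H2-T22, the class I-like genes, Ifng, G6pc, genes of the class I receptor list and the T cell markers. One listed gene, H2-L, was not found by symbol. Another is counted in its list but is not reported here. Sequences are from RefSeq (GRCm38.p6).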

Additional observations from a re-analysis of the deposited data

How the results depend on the processing

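All 10 genes had negative log2 fold changes in all 18 alternative fits, except Erap1, which ranged from -0.12 to 0.057 with libraries left out, at 0.057 without WT replicate 2 and 0.02 without KO replicate 3. Their median ran from -0.36 to -0.25. The number called of the 10 was 0 with edgeR as described, 4 by DESeq2 and 1 (H2-D1, adjusted p = 0.0494) without a filter, and 0 in the other alternatives. The adjusted p of H2-D1 ran from 0.000491 to 0.350. Over all genes the calls numbered 27, against 438 by DESeq2, 133 without a filter, 68 with robust estimation, 1 with the replicate block, 1 at a threshold of 0.01, 1 when WT replicate 1 and KO replicate 2 were both left out, and 3 to 36 with 1 library left out (3 without KO replicate 2, 13 without KO replicate 3, 5 without WT replicate 1 and 4 without WT replicate 2). Of the genes on the pathway and marker lists, 1 was called (Irf7), against 27 by DESeq2, 14 without a filter, 4 with robust estimation and 0 with the replicate block, with the 1 CPM filter, without the 20 highest genes in library sizes, at a threshold of 0.01 or without those 2 libraries, and 0 to 2 with 1 library left out. The cause of these differences was not tested. Same-numbered samples correlated at -0.08, -0.10 and -0.04 in their deviations from group means. These values showed no pairing by number but cannot exclude one, and the labels do not state one. The block changed the sign of none of the 10. All 5 ratios kept their sign with each single library left out and with the block. With the block their exact sign-flip p was 0.25, the smallest that 3 pairs allow. Low counts left 5 of 16 leukocyte markers and 7 of 10 genes of the class I receptor list untested.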
